A study of Mus musculus with 6 samples.

Results

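The genes described here encode inhibitory analgesic G protein-coupled receptors of sensory neurons: the opioid receptor genes Oprm1, Oprd1 and Oprk1, the nociceptin receptor gene Oprl1, the cannabinoid receptor gene Cnr1, the alpha-2 adrenoceptor genes Adra2a and Adra2c, the GABA-B subunit genes Gabbr1 and Gabbr2, and the somatostatin receptor gene Sstr2. They were found by gene symbol alone and make up 10 of the 54242 gene symbols and 72 of the 140992 transcripts in the table. RNA was measured in 6 libraries of L4-6 dorsal root ganglion (DRG) from male C57bl/6 mice aged 8-10 weeks. The mice of 3 libraries, called fed, ate ad libitum, and those of the other 3, called fasted, had followed an intermittent fasting diet for 10 days; no other allele or agent is named for either group. The labels give a kill time of 24 hours without saying what it follows, so feeding state at that moment cannot be told. Ganglia of both groups were enzymatically dissociated and enriched for neurons on an albumin gradient before lysis, and the labels do not say whether a library came from 1 animal or from a pool. Spread that the p-values below are set against is that from library to library, and it may be technical.

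These receptors share one signalling route. An agonist, such as an opioid peptide, an endocannabinoid, noradrenaline, GABA or somatostatin, activates heterotrimeric G proteins of the Gi/o class; the alpha subunit inhibits adenylyl cyclase, and the freed beta-gamma dimer closes presynaptic voltage-gated calcium channels and opens inwardly rectifying potassium channels, so that the nociceptor fires less and releases less transmitter in the spinal cord. The GABA-B receptor is an obligate heterodimer: the Gabbr1 product binds GABA and the Gabbr2 product couples to the G protein. In DRG, mu-opioid receptors are best known from peptidergic nociceptors, and the opioid, cannabinoid and alpha-2 receptors are the targets of morphine, cannabinoids and clonidine.

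Several of these genes make transcripts that differ in one end of the protein, and the coding bases at those ends are shown because they are what the isoform levels below rest on. Gabbr1 has alternative first coding exons; the lines give the first coding bases of its most abundant transcripts, with the start codon in capitals. Gabbr1-201, which encodes the long form known as GABA-B1a, starts at chr17:37046695-37046754, and Gabbr1-203, the shorter form known as GABA-B1b, starts further downstream at chr17:37050854-37050913 (GRCm38, plus strand). The 2 reading frames have 960 and 844 codons; they share their last 2392 coding bases and differ in the first 488 and 140.
Gabbr1-201: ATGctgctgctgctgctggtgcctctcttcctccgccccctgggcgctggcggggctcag
Gabbr1-203: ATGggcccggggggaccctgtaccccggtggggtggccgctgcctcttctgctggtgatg

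Sstr2 and Oprm1 differ at the other end. The next lines give the coding bases that follow the shared part, with the stop codon in capitals. Sstr2-203 (369 codons; chr11:113625251-113625366, plus strand) and Sstr2-202 (346 codons; chr11:113625590-113625636) part after 994 shared coding bases. In Oprm1, 17 annotated isoforms share 1158 coding bases; 3 of them then have the tail of Oprm1-215 and 14 have other coding ends. The tail of Oprm1-215 (398 codons) lies at chr10:6849806-6849844; those of Oprm1-222 (chr10:6979616-6979708) and Oprm1-230 (chr10:6840566-6840637) are shown as the other tails with the highest level in any library.
Sstr2-203: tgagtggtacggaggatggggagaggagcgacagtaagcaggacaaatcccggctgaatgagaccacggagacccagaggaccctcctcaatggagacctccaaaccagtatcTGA
Sstr2-202: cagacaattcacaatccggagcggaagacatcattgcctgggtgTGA
Oprm1-215: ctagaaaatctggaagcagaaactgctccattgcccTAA
Oprm1-222: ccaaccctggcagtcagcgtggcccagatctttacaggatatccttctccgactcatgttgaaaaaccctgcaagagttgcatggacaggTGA
Oprm1-230: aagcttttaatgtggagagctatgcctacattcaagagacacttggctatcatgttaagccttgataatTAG

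Levels are given in TPM (transcripts per 1000000), a share of all transcripts in a library that is corrected for transcript length and can therefore be compared between genes. TPM keeps no read depth, so the counting error of a low value is unknown. Gabbr1 had the highest level, with a mean of 276.9 TPM over the 6 libraries, above 95.8% of the 15097 genes tested. Gabbr2 followed at 89.69 TPM, above 85.3% of tested genes. The GABA-B subunits together held between 79.4% and 81.2% of the summed TPM of the 10 genes, and the 4 opioid and nociceptin receptor genes between 9.0% and 9.7%.

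After a wide step came Cnr1 at 19.71 and Oprl1 at 19.24 TPM, which did not differ beyond their spread: Cnr1 was above Oprl1 in 3 of 6 libraries. Adra2c (16.57 TPM) was below Oprl1 in 6 of 6 libraries, although their ranges overlapped. Oprm1 (11.7 TPM) and Oprd1 (10.25 TPM) overlapped too, with Oprm1 above Oprd1 in 5 of 6 libraries. Sstr2 (7.029 TPM), Adra2a (5.26 TPM) and Oprk1 (1.71 TPM) closed the order, each with a range apart from its neighbours. All 10 genes passed the filter of a mean of at least 1 TPM, so each has a test below.

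**Figure D1:**
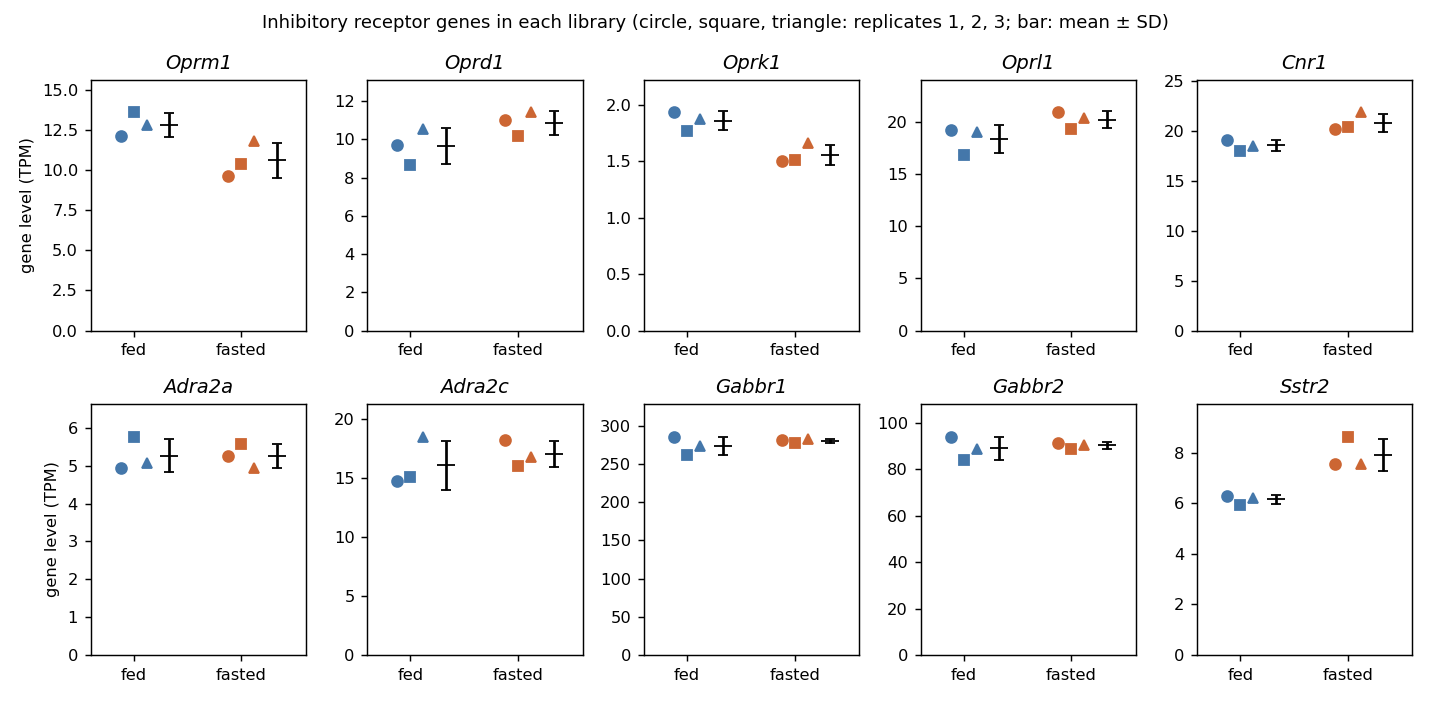
Level of each receptor gene in TPM (vertical axes, each from 0) in the 3 fed and 3 fasted libraries. Circles, squares and triangles are replicates 1, 2 and 3, and bars the mean ± SD. Oprm1 and Oprk1 lie lower, and Oprl1, Cnr1 and Sstr2 higher, in all 3 fasted libraries than in any fed one.

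The comparison of fasted with fed libraries asks what 10 days of intermittent fasting went with in these neurons. Sstr2 was the gene with the largest difference among the 10, 1.29-fold higher in fasted libraries, and Oprm1 was 17.3% lower. Neither passed the test once it was adjusted over all genes: by limma with Benjamini-Hochberg adjustment, 0 of the 10 genes had an adjusted p under 0.05, against 0.00662% (1 gene) of all 15097 tested. Before adjustment, 2 of the 10 (Sstr2, Cnr1) were higher with p under 0.05, where 6.72% of all tested genes were, and 1 (Oprm1) was lower, where 3.22% were. The ranges of the groups lay apart with fasted higher for 3 of the 10 (background 12.7%) and with fasted lower for 2 of the 10 (background 5.07%). With 10 genes, these shares rest on 1 to 3 genes each and were not tested against the background. Of the 10, 7 had a positive log2 fold change with a median of 0.06, and of all tested genes 62.5% did, with a median of 0.03.

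Oprm1 encodes the mu-opioid receptor, the main target of morphine, and lies on chromosome 10 (6758506-7038198, plus strand, GRCm38). Its level was 12.09, 13.58 and 12.79 TPM in the fed libraries and 9.616, 10.35 and 11.81 TPM in the fasted ones. Every fasted library was below every fed one, and fasted replicate 3 came within a short distance of fed replicate 1. The means were 12.82 ± 0.746 and 10.59 ± 1.12 TPM (SD, n = 3 each), a log2 fold change of -0.26 with a standard error of 0.08 and a 95% interval from -0.45 to -0.06. The limma p was 0.018 and the adjusted p 0.48. Leaving out single libraries gave log2 fold changes from -0.33 to -0.19; the unadjusted p was above 0.05 without fed replicate 2, fasted replicate 1 or fasted replicate 2 (at most 0.065).

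Oprd1 encodes the delta-opioid receptor, for which enkephalins are the main endogenous agonists (chromosome 4, 132110726-132144486, minus strand). Its fed libraries had 9.721, 8.667 and 10.56 TPM and its fasted libraries 10.99, 10.16 and 11.41 TPM. The groups overlapped, since fed replicate 3 was above fasted replicate 2. The mean was 9.648 ± 0.946 TPM fed and 10.85 ± 0.633 TPM fasted (log2 fold change 0.16 ± 0.08 SE, limma adjusted p 0.53). Without fed replicate 2 the log2 fold change was 0.09 (unadjusted limma p 0.30), without fed replicate 3 it was 0.22 (0.04), and with pan-neuronal scaling 0.08.

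The fold changes of the mu and delta receptor genes had opposite signs, and the ratio of Oprm1 to Oprd1 within a library does not depend on library scaling. It was 1.24, 1.57 and 1.21 in fed libraries, and 0.875, 1.02 and 1.04 in fasted ones. In fed libraries Oprm1 was thus the higher of the pair each time, while in fasted libraries the levels were close and fasted replicate 1 had the order reversed. The log2 ratio averaged 0.4128 ± 0.204 in fed and -0.03845 ± 0.134 in fasted libraries (SD, n = 3), a difference of -0.451 with no overlap. The exact two-sided permutation p was 0.1, which any full separation of 3 libraries from 3 gives and below which it cannot fall. The ratio reuses the values of both genes given above, so it is not a separate result. How many gene pairs lie apart in this way is not given here.

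Oprk1, the kappa-opioid receptor gene and the receptor of dynorphins (chromosome 1, 5588466-5606131, plus strand), was the lowest of the 10. Fed libraries had 1.935, 1.771 and 1.878 TPM, and fasted ones 1.506, 1.509 and 1.662 TPM. The fasted values were again all below the fed ones, but at a level where 1 TPM of pseudocount compresses the difference. On the log2(TPM + 1) scale it was -0.16, with a standard error of 0.11, a 95% interval from -0.42 to 0.10 and a limma adjusted p of 0.60. With a pseudocount of 0.5 it was -0.2 and with 0.1 it was -0.24. The unadjusted limma p stayed much the same, at 0.19 in the main fit and 0.19 and 0.2 with these pseudocounts.

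Oprl1 encodes the nociceptin receptor, which resembles the opioid receptors but does not bind classical opioids with high affinity (chromosome 2, 181715016-181720985, plus strand). Its level was 19.18, 16.78 and 18.96 TPM in the fed and 20.87, 19.28 and 20.38 TPM in the fasted libraries. All fasted libraries were above the fed ones, with fed replicate 2 the lowest. The log2 fold change was 0.13 (standard error 0.07, 95% interval -0.02 to 0.29) and the limma adjusted p 0.52; it was 0.08 without fed replicate 2. Summed over the 4 genes, opioid and nociceptin receptor transcripts came to 42.63 ± 1.71 TPM fed and 43.18 ± 1.99 TPM fasted, with overlapping ranges.

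Cnr1 encodes the CB1 cannabinoid receptor, the neuronal receptor of endocannabinoids (chromosome 4, 33924593-33948831, plus strand). It stood at 19.14, 18.05 and 18.56 TPM with free feeding, against 20.22, 20.41 and 21.89 TPM after fasting. The groups did not overlap. The means were 18.58 ± 0.544 and 20.84 ± 0.914 TPM (log2 fold change 0.16, standard error 0.05, 95% interval 0.03 to 0.28). The limma p was 0.02 and the adjusted p 0.48; without fed replicate 2 or fasted replicate 3 the unadjusted p was above 0.05 (at most 0.074). When libraries were scaled to equal sums of 15 pan-neuronal genes the log2 fold change was 0.07 with an unadjusted p of 0.25.

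Sstr2 encodes a somatostatin receptor through which somatostatin and octreotide quieten nociceptors (chromosome 11, 113619342-113626028, plus strand). Its fed libraries had 6.294, 5.946 and 6.204 TPM, and its fasted libraries 7.567, 8.624 and 7.537 TPM. The fed values were tightly grouped and every fasted value was above them, fasted replicate 2 most. The means were 6.148 ± 0.18 and 7.909 ± 0.619 TPM, a log2 fold change of 0.32 with a standard error of 0.08 and a 95% interval from 0.14 to 0.50. The limma p was 0.0041, the lowest of the 10 genes, and the adjusted p 0.42. Without any single library the log2 fold change stayed between 0.26 and 0.35, with unadjusted limma p between 0.0077 and 0.017. With pan-neuronal scaling it was 0.24, with an unadjusted limma p of 0.036.

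The 2 alpha-2 adrenoceptor genes, whose products are the receptors for noradrenaline and clonidine, overlapped between groups. Adra2a (chromosome 19, 54044151-54048982, plus strand) had 4.953, 5.767 and 5.072 TPM in the fed and 5.256, 5.574 and 4.94 TPM in the fasted libraries. Its log2 fold change was -0.00053 with a 95% interval from -0.21 to 0.21 (limma adjusted p 1.0). Adra2c (chromosome 5, 35278319-35281763, plus strand) had 14.76, 15.09 and 18.52 TPM in the fed and 18.21, 16.04 and 16.82 TPM in the fasted libraries, where fed replicate 3 was the highest of all 6. Its log2 fold change was 0.08, with a 95% interval from -0.14 to 0.30 and a limma adjusted p of 0.76; leaving out single libraries gave 0.02 (without fed replicate 1) to 0.18 (without fed replicate 3). Adra2a was the minor gene of the pair in each library: the ratio of Adra2a to Adra2c was 0.336, 0.382 and 0.274 fed and 0.289, 0.348 and 0.294 fasted (exact two-sided permutation p = 0.7 for the log2 ratio).

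The GABA-B subunit genes had the narrowest intervals. Gabbr1 (chromosome 17, 37045966-37075067, plus strand) had 285.5, 261.1 and 273.4 TPM fed and 281.8, 277.3 and 282.1 TPM fasted. Gabbr2 (chromosome 4, 46662305-46991873, minus strand) had 94.04, 84.23 and 88.99 TPM fed and 91.58, 88.81 and 90.5 TPM fasted. For both genes fed replicate 2 was the lowest and fed replicate 1 the highest library, so the fasted values lay within the fed range. The log2 fold change was 0.04 for Gabbr1 (95% interval -0.06 to 0.13, limma adjusted p 0.73) and 0.02 for Gabbr2 (-0.09 to 0.13, adjusted p 0.88). The subunits kept a nearly fixed ratio: Gabbr1 was 3.04, 3.1 and 3.07 times Gabbr2 in fed and 3.08, 3.12 and 3.12 times in fasted libraries (exact two-sided permutation p = 0.2 for the log2 ratio).

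**Figure D2:**
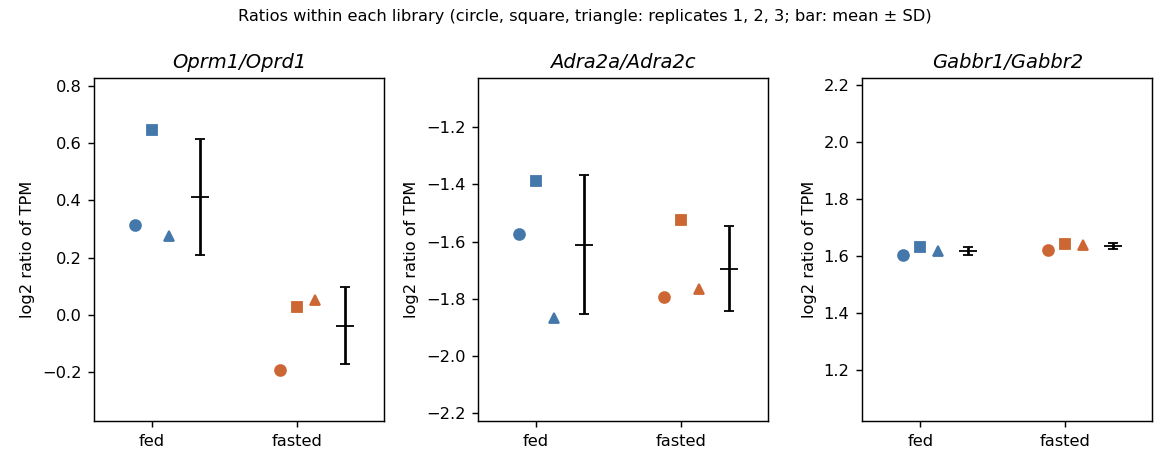
Log2 ratios of TPM within each library (vertical axes, all spanning the same length); circles, squares and triangles are replicates 1, 2 and 3, bars the mean ± SD. Oprm1/Oprd1 is lower in all 3 fasted than in all 3 fed libraries, Adra2a/Adra2c overlaps, and Gabbr1/Gabbr2 lies between 1.602 and 1.642 in all 6.

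**Figure D3:**
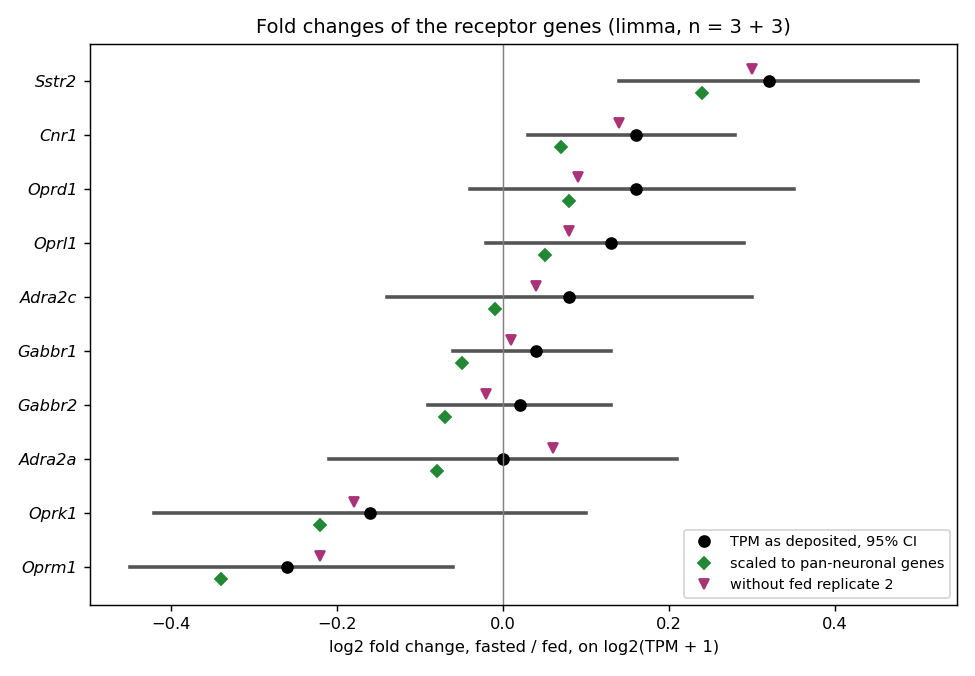
Log2 fold change of each receptor gene, fasted against fed, on log2(TPM + 1), with its 95% interval from limma (circles and lines). Diamonds are the values with libraries scaled to pan-neuronal genes, triangles those without fed replicate 2. Sstr2 and Oprm1 are the extremes at 0.32 and -0.26 and keep their direction in both alternatives.

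Levels of cell type markers also differed between libraries, and whether diet or preparation lay behind this was not tested. The 15 pan-neuronal genes (among them Rbfox3, Uchl1, Tubb3 and Prph) summed to 20430-22570 TPM fed and 22260-23490 TPM fasted, lowest in fed replicate 2, and 15 of 15 were higher in fasted libraries (median log2 fold change 0.07). Abundant genes such as Nefl (mean 4193 TPM), Uchl1 (4044) and Nefm (3030) weigh most in this sum, and Rbfox3 (214.1) weighs little. The pan-neuronal scaling uses the sum as it is. Of 10 macrophage markers, 10 were lower in fasted libraries (sums 74.83-89.03 fed, 50.83-65.1 fasted), as were 6 of 7 endothelial markers (77.32-92.41 fed, 66.18-80.3 fasted), while 5 of 5 erythrocyte genes were higher (1284-1564 fed, 1715-3277 fasted). Skeletal muscle markers summed to 203.9-2734 TPM fed, highest in fed replicate 2, and 50.05-227.7 TPM fasted. Sums of peptidergic markers, the class best known for Oprm1, were 3434-4312 TPM fed and 3594-3767 TPM fasted, and those of non-peptidergic markers 555.5-640.3 and 577.4-622.3 TPM. Of 3 pruriceptor markers 2 were lower in fasted libraries (sums 53.81-58.9 fed, 47.69-57.6 fasted): Nppb had a log2 fold change of -0.23 (unadjusted limma p 0.043) with overlap, and Il31ra of -0.13 (0.053) without overlap. The part of these shifts in the receptor values was not tested beyond the pan-neuronal scaling and the fits without fed replicate 2 given here. In whole-population RNA, fewer cells of a type and less RNA per cell cannot be told apart. With pan-neuronal scaling 4 of the 10 genes were higher and 6 lower (medians -0.029 for them and -0.052 for all genes, of which 27.7% were higher). Oprm1 was then at -0.34, with an unadjusted limma p of 0.012.

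At the transcript level, 16 of the 72 transcripts had a mean of at least 1 TPM; by limma 0 of the 16 had an adjusted p under 0.05, against 0.0271% (9) of the 33197 transcripts tested. The main transcripts of Sstr2, Oprm1 and Cnr1 had unadjusted limma p under 0.05 (0.013, 0.040 and 0.048, with adjusted p 0.66, 0.67 and 0.67). The share of all transcripts with such a p, or with no overlap between groups, is not given here. These p-values and the separations of transcripts described below therefore have no background to be read against. Transcript usage was tested for the 2 genes with more than 1 such transcript, Gabbr1 and Oprl1, with limma's diffSplice F test: neither was called (adjusted p 1.0 and 0.98), against 0.961% (77) of 8014 genes. In data simulated for this comparison, with 200 of 8014 genes changed, 34.6% of that test's calls were false. That share depends on the changes simulated and is not the false share of the 77 calls.

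For Gabbr1 the start-codon forms printed above were expressed side by side. Gabbr1-203, the GABA-B1b form, held 50.03%, 51.23% and 50.93% of the gene's TPM in the fed and 51.14%, 50.13% and 52.13% in fasted libraries (exact permutation p = 0.5). Gabbr1-201, the GABA-B1a form, held 35.02%, 33.34% and 35.09% in fed and 32.85%, 36.09% and 34.58% in fasted libraries (exact permutation p = 1.0). Gabbr1-202, which uses the upstream start codon and has 229 codons, held 7.129-8.59%. The shares overlapped for each of them.

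Grouped by start codon, a grouping chosen after the values were seen, the 4 upstream-start transcripts made up 49.26%, 48.39% and 48.73% of coding Gabbr1 TPM in the fed and 47.6%, 49.41% and 47.57% in fasted libraries (exact permutation p = 0.4). Upstream-start and downstream-start transcripts were thus close to equal in every library. Gabbr1-203 has 43 31-base words that occur in no other annotated transcript and Gabbr1-201 has 846. The 846 are not a count for the upstream start. Gabbr1-201 has the same first 60 coding bases as Gabbr1-202 and Gabbr1-209, and it ends at 37075067, past the end of Gabbr1-203 at 37074304. Where its unique words lie was not mapped. Gabbr1-209, another upstream-start form, has none, so its split from Gabbr1-202 rests on the quantifier's model.

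**Figure D4:**
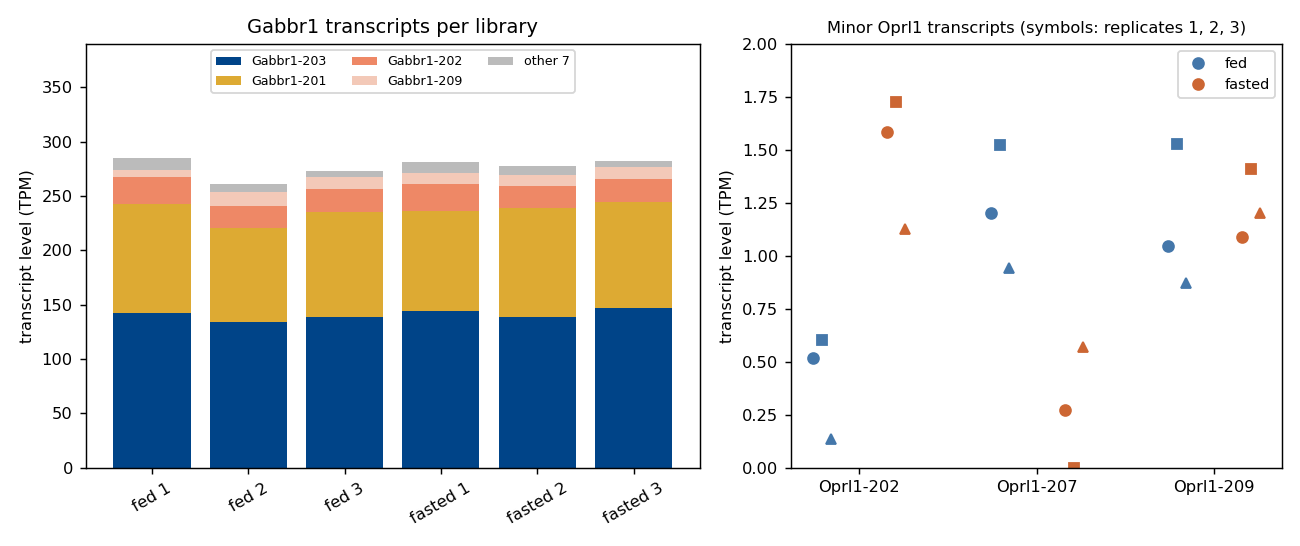
Left, stacked TPM of Gabbr1 transcripts in each library (bars from 0), with Gabbr1-203 at the base making up 50.03-52.13% of the gene throughout. Right, TPM of 3 minor Oprl1 transcripts in fed (blue) and fasted (orange) libraries, with circles, squares and triangles for replicates 1, 2 and 3; Oprl1-202 is higher and Oprl1-207 lower in all fasted libraries.

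Oprm1 has 31 transcripts in the table, of which 16 were listed at 0 in all libraries and 1, Oprm1-215, was above 0 in all 6. Oprm1-215 had 11.89, 12.4 and 12.21 TPM in the fed and 9.471, 10.09 and 11.5 TPM in the fasted libraries. The fasted values were all below the fed ones, as for the whole gene (log2 fold change -0.22, limma adjusted p 0.67). Its share of the gene was 98.35%, 91.32% and 95.45% fed and 98.5%, 97.48% and 97.36% fasted, with overlap (exact permutation p = 0.3). The 14 isoforms that join another tail to the same coding exons summed to 0, 0.894 and 0 TPM in the fed and 0.1445, 0 and 0.2169 TPM in the fasted libraries, and 7 of the 14 were listed at 0 throughout. Oprm1-222 reached 0.4631 TPM and Oprm1-230 0.2563 TPM, both in fed replicate 2, and each was listed at 0 in the other 5 libraries. Oprm1-222 has 0 unique 31-base words, so its level rests on the quantifier's model, while Oprm1-230 has 710.

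Sstr2-203 carried most of Sstr2, with 6.294, 5.356 and 6.204 TPM in the fed and 7.451, 8.624 and 7.451 TPM in the fasted libraries, between 90.1% and 100% of the gene. The groups did not overlap for this transcript. Sstr2-202, with the shorter tail, was above 0 in 3 libraries, at most 0.5898 TPM in fed replicate 2, and it too has 0 unique 31-base words. Gabbr2-201 held at least 99.7%, Oprk1-204 at least 98.1%, Cnr1-201 at least 93.1% and Adra2a-202 at least 92.6% of their genes (the rest of Adra2a was Adra2a-201, at most 0.413 TPM), while Oprd1 and Adra2c have 1 transcript each.

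Oprl1 was the other gene with several transcripts, and Oprl1-201 held 77.0-88.6% of it. Oprl1-209, annotated as a target of nonsense-mediated decay, had 1.148 ± 0.341 TPM fed and 1.234 ± 0.164 TPM fasted, with overlap. A pair of minor transcripts under the 1 TPM filter is named here after the values were seen. Oprl1-202, with 353 codons against 367 in Oprl1-201, had 0.5174, 0.6045 and 0.1361 TPM in the fed and 1.583, 1.728 and 1.128 TPM in the fasted libraries. Oprl1-207, annotated with 141 codons, had 1.201, 1.525 and 0.9438 TPM in the fed and 0.2728, 0 and 0.5714 TPM in the fasted libraries. The groups did not overlap for either, and they went in opposite directions. How many of all transcripts lay apart in this way is not given here. In the fit without a filter the log2 fold changes were 0.81 and -0.81, with unadjusted limma p of 0.012 and 0.016 and an adjusted p of 0.81 for each. They have 30 and 29 unique 31-base words, so few reads can tell them apart. A further minor transcript, Oprl1-203, also lay apart, at 0.06974, 0.0688 and 0.2018 TPM fed and 0 in every fasted library. Its unadjusted limma p in the fit without a filter was 0.032 and its adjusted p 0.81.

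Sequence shared with other genes was small. Of the 31-base words in Oprm1 transcripts 0.96% occur in another gene, the highest share of the 10, and 0% of those in Sstr2, Oprl1, Adra2a and Adra2c do. Sstr2 overlaps Slc39a11 and Oprm1 overlaps Ipcef1 on the opposite strand. The kit marks strand, and no source used here gives the strand setting of the quantification. Slc39a11 had 19.71 ± 1.95 TPM fed and 19.5 ± 0.906 TPM fasted, and Ipcef1 0.5324 ± 0.0285 and 0.5682 ± 0.0688 TPM, overlapping between groups in both cases.

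The partners of the receptors were read from 11 lists of 110 genes, 93 of them tested. None had a limma adjusted p under 0.05 (smallest 0.41), 4 were higher and 4 lower with an unadjusted p under 0.05, and 61 had a positive and 32 a negative log2 fold change (median 0.04). Over all tested genes 6.72% were higher and 3.22% lower with such a p, and 62.5% had a positive fold change (median 0.03), so the directions below are to be read against a background that itself leans positive. Ranges of the groups lay apart for 12.7% of all tested genes with fasted higher and for 5.07% with fasted lower. Most genes below are named for a low p within their list. Their lack of overlap is therefore largely built in by that choice and is not a further result. Genes apart, fasted higher and fasted lower, were 5 and 1 of 18 other Gi/o-coupled receptors and 2 and 1 of 14 beta and gamma subunits. They were 1 and 1 of 17 RGS, 1 and 0 of 9 cyclase, 2 and 0 of 7 endocannabinoid and 0 and 2 of 7 kinase or arrestin genes. They were 3 and 0 of 4 channel, 1 and 0 of 5 alpha subunit and 1 and 1 of 5 trafficking genes. Ligand and Kctd genes had 0 apart. Among the ligands, 3 of 6 genes were tested, 2 with a positive and 1 with a negative fold change. Penk, the enkephalin precursor, had 15.22, 20.34 and 17.22 TPM fed and 19.57, 27.87 and 13.51 TPM fasted. Pomc, the beta-endorphin precursor, had 1.304 ± 0.262 and 1.149 ± 0.374 TPM. Both overlapped, as did Sst, the ligand gene of Sstr2, at 13.89, 10.35 and 12.72 TPM fed and 11.46, 15.72 and 12.27 TPM fasted. Pdyn, Pnoc and Cort stayed under 1 TPM.

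Of 7 endocannabinoid enzymes, 5 had a positive and 2 a negative fold change, and 0 had an unadjusted p under 0.05. Abhd12, the most abundant, had 266.4 ± 15.4 TPM fed and 278.2 ± 7.36 TPM fasted. Mgll, which degrades 2-arachidonoylglycerol, had 59.72 ± 1.13 and 62.06 ± 0.882 TPM, and Faah, which degrades anandamide, 13.92 ± 0.211 and 14.87 ± 1.06 TPM. For both the fasted libraries were above the fed ones, by log2 fold changes of 0.05 and 0.09 (limma adjusted p 0.58 and 0.62).

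Other Gi/o-coupled receptors numbered 27, with 18 tested, 13 in the positive and 5 in the negative direction. Adora1, the adenosine A1 receptor gene and the highest of the list, had 62.79 ± 3.24 TPM fed and 65.36 ± 2.76 TPM fasted. The metabotropic glutamate receptor genes Grm8 and Grm4 had no overlap: Grm8 had 10.81 ± 0.774 and 12.49 ± 0.472 TPM (log2 fold change 0.19, limma adjusted p 0.48), and Grm4 16.14 ± 0.801 and 17.82 ± 0.617 TPM (0.14, adjusted p 0.50). The neuropeptide Y receptor gene Npy2r, named because its unadjusted p was also under 0.05, went the other way without overlap, at 18.13, 18.27 and 17.7 TPM fed and 15.42, 17.58 and 15.72 TPM fasted (-0.15, adjusted p 0.50). The remaining somatostatin receptor genes with at least 1 TPM were Sstr1, at 3.232, 2.285 and 3.124 TPM fed and 3.903, 3.297 and 3.507 TPM fasted, and Sstr4, at 3.143, 2.762 and 2.978 TPM fed and 2.854, 4.118 and 3.533 TPM fasted. Sstr1 was apart between groups and Sstr4 overlapped (limma adjusted p 0.53 and 0.61); both are named for belonging to the family of Sstr2.

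The 5 Gi/o alpha subunit genes all had positive fold changes with a median of 0.07, the median of the pan-neuronal genes. Gnao1, which encodes the abundant neuronal alpha-o subunit, had 657.6 ± 39.1 TPM fed and 685.8 ± 11.8 TPM fasted. Gnai1 was the one of the 5 without overlap, at 114.0 ± 6.47 and 124.1 ± 6.42 TPM (log2 fold change 0.12, limma adjusted p 0.52), and Gnai3 had 55.35 ± 1.35 and 58.17 ± 2.01 TPM. Of 14 tested beta and gamma subunit genes 10 were in the positive and 4 in the negative direction. Gng4 had 8.309, 8.591 and 8.8 TPM fed and 9.409, 10.92 and 11 TPM fasted, with no overlap (log2 fold change 0.26, limma p 0.011, adjusted p 0.46). Gnb1 had 702.4 ± 25.3 and 718.1 ± 6.69 TPM, and Gng5 92.23 ± 10.4 and 82.26 ± 4.17 TPM.

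Among effectors, 4 of 6 channel genes were tested, 3 positive and 1 negative. Cacna1b, the N-type calcium channel closed by these receptors, had 48.6 ± 0.582 TPM fed and 52.32 ± 2.62 TPM fasted (log2 fold change 0.10, limma adjusted p 0.51). Kcnj3, a potassium channel subunit opened by beta-gamma dimers, had 16.3 ± 1.56 and 18.25 ± 0.305 TPM (0.16, adjusted p 0.52). Neither overlapped between groups. The other subunit genes of this channel family, named for that reason, were low: Kcnj9 had 1.339-1.676 TPM, apart between groups with fasted higher (0.11, adjusted p 0.72), Kcnj6 had 0.767-1.08 TPM with overlap, and Kcnj5 was below 0.05 TPM in every library. Adenylyl cyclase genes were in both directions (6 positive, 3 negative): Adcy3 had 11.79 ± 0.641 and 12.84 ± 0.332 TPM without overlap, and Adcy1 (17.24 ± 1.69 and 18.54 ± 0.899) and Adcy5 (28.02 ± 1.24 and 26.75 ± 0.896) overlapped.

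Regulators that end or desensitise the signal were mixed. RGS proteins speed the hydrolysis of GTP by the alpha subunit; of 17 tested, 10 were in the positive and 7 in the negative direction. Rgs4, the most abundant, had 964.8 ± 43.6 TPM fed and 935.3 ± 40.8 TPM fasted. Rgs19 had 20.05, 20 and 15.83 TPM fed and 15.72, 14.54 and 15.67 TPM fasted, apart by a small margin to fed replicate 3 (log2 fold change -0.26, limma adjusted p 0.49). Rgs5, also a gene of pericytes, had 98.12 ± 3 and 90.65 ± 4.41 TPM (-0.11, adjusted p 0.50).

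Of the kinases and arrestins that desensitise receptors, 3 were in the positive and 4 in the negative direction. Arrb1, encoding beta-arrestin 1, had 139.1, 141.6 and 124.1 TPM fed and 121.2, 123.9 and 122.3 TPM fasted, again barely apart from fed replicate 3 (log2 fold change -0.14, limma adjusted p 0.50). Grk2 had 156 ± 9.33 and 157.7 ± 3.2 TPM, and Grk4 2.38 ± 0.321 and 1.787 ± 0.33 TPM. The 4 Kctd genes, whose products bind GABA-B receptors and shape their response, all had negative fold changes (median -0.07) with overlapping ranges; Kctd8 had 51.77 ± 3.5 and 50.75 ± 1.05 TPM, Kctd16 24.92 ± 1.46 and 23.66 ± 1.04 TPM, and Kctd12b 2.32 ± 0.0416 and 1.937 ± 0.418 TPM.

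The last list held proteins that carry or bind the receptors. Sgip1, whose product binds CB1 and slows its internalisation, had 38.56, 42.56 and 40.22 TPM in the fed and 46.93, 48.87 and 49.65 TPM in the fasted libraries. All fasted values were above all fed values, the same direction as Cnr1. On the log2 scale it was 0.26 higher (SE 0.05), with the lowest unadjusted p of the 93 partner genes (0.001, limma) and an adjusted p of 0.41. Rtp4, whose product helps bring mu-delta opioid receptor pairs to the cell surface and which also belongs to the interferon-induced genes, had 10.45, 14.14 and 10.43 TPM fed and 10.28, 9.231 and 5.772 TPM fasted (log2 fold change -0.45, adjusted p 0.51). Its groups were separated by a small gap, with fasted replicate 3 far below the others. Gprasp1, which sorts delta receptors to lysosomes, had 115 ± 9.69 and 123 ± 4.17 TPM with overlap.

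**Figure D5:**
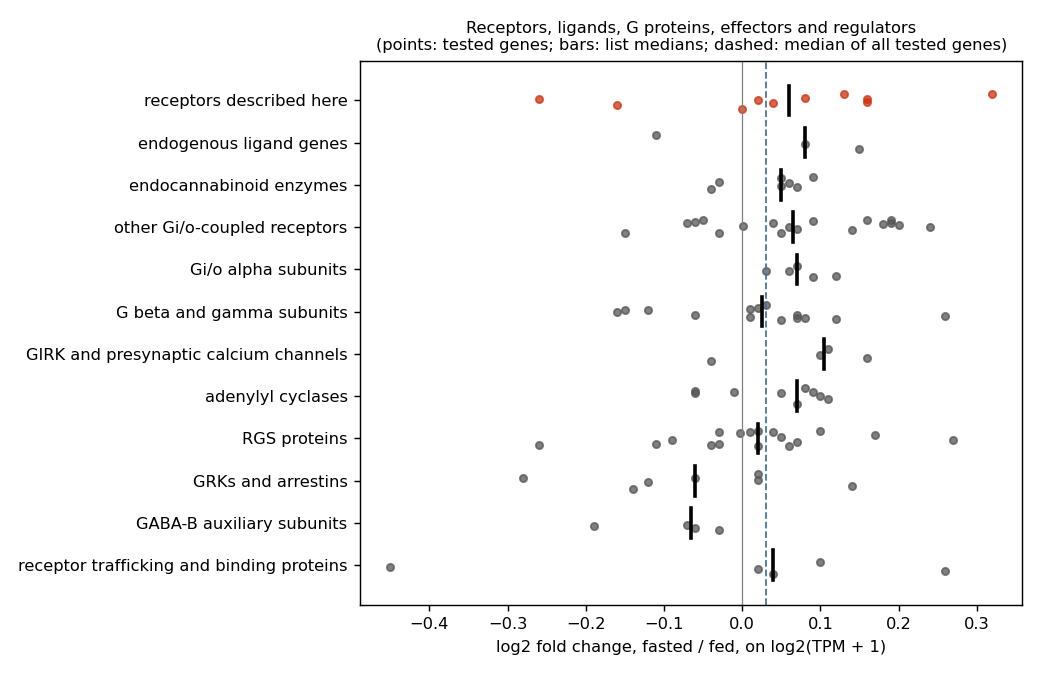
Log2 fold change, fasted against fed, on log2(TPM + 1), for the receptor genes (red) and the tested genes of the 11 partner lists (grey points; vertical position within a row is arbitrary). Short bars are list medians and the dashed line is the median of all tested genes, 0.03; the points lie between -0.45 (Rtp4) and 0.32 (Sstr2).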

How the data were processed

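The authors deposited 1 TPM value per transcript and library. The submitters' processing notes name Salmon 1.6.0, Trim Galore 0.6.6, FastQC 0.11.9 and DESeq2 1.34.0 and the builds mm10 and GRCm38, without roles; no source used here names the annotation release. Per the labels' protocols a stranded mRNA kit was used. Each library sums to 1000000, so a higher share of some transcripts lowers the others, and no count test was run. No column belonged to samples outside the series.

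TPM was summed by gene symbol. Genes (15097) and transcripts (33197) with a mean of at least 1 TPM were tested on log2(TPM + 1), a scale that understates changes of low genes, with limma 3.58.1 in R 4.3.3 (a two-sided test of group alone, with trended empirical Bayes variances) and Benjamini-Hochberg adjustment over all tested features, with a threshold of 0.05. The procedure was tested on simulated data. Transcript usage was tested with limma's diffSplice, and ratios and isoform shares with exact two-sided permutation tests. Coordinates, reading frames and sequences came from GENCODE M21 (GRCm38), in which all 72 transcripts were found; no protein sequence was used here.

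The receptors and lists were chosen with earlier results of these data known. All receptors are named; of each partner list the most abundant gene and the 2 with the lowest unadjusted p are named, plus those said to be chosen otherwise, and transcripts holding at least 5% of their gene. Marker lists were used for sums and counts. Same-numbered libraries' deviations correlated at 0.0929, 0.114 and 0.0662, and those of differently numbered libraries at -0.124 to 0.0392. The labels name no pairs, so replicate numbers were not taken as pairs in the main fit. A fit with a replicate block is given below.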

Additional observations from a re-analysis of the deposited data

How the results depend on the processing

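The 10 genes were refitted under 16 other settings, giving 159 fold changes, of which 149 kept their direction and 10 reversed; none reached an adjusted p under 0.05 (smallest 0.33), and Oprm1, Oprd1, Oprk1, Oprl1, Cnr1 and Sstr2 did not reverse. Reversed log2 fold changes were near 0: with pan-neuronal scaling Adra2c was -0.01, Gabbr1 -0.05 and Gabbr2 -0.07; Gabbr2 was -0.01 with median-of-ratios scaling, quantile normalization or no mitochondrial genes; Adra2a was 0.01 with quantile normalization. Leaving out single libraries gave -0.04 to 0.06 for Adra2a and -0.02 to 0.06 for Gabbr2. The number of the 10 with an unadjusted p under 0.05 was 3, and 1 (Sstr2) without fed replicate 2 to 5 without fed replicate 3, which added Oprd1 and Adra2c. Outside the main fit, the share of all tested genes with such a p is not given here. The counts under other settings, the replicate block below included, therefore have no background. Without a single library the Adra2a/Adra2c log2 ratio differed by -0.213 to 0.027, and the shares differed by -0.767 to 0.852 points for Gabbr1-201, -0.674 to 0.0767 for Gabbr1-202 and -0.097 to 0.906 for Gabbr1-203; Gabbr1-201 differed by -0.0826 with protein-coding transcripts only. Of all genes 2 were called with a pseudocount of 0.1 or 0.5, 0 with no filter or with protein-coding transcripts only, and 1 to 6 without a single library; of all transcripts 4 were called at a mean of at least 5 TPM and 4 to 15 without a single library. The usage test called 189 genes with no filter, 20 at a mean of at least 5 TPM, and 11 transcripts as log2 shares, a test added after seeing the data. With a replicate block the fold changes were those of the main fit (Oprm1 -0.26, Sstr2 0.32), 4 of the 10 had an unadjusted p under 0.05, and 0 transcripts were called; every library correlated best with its own number, a hint from the data and not from the design. The cause of these shifts was not tested. TPM keeps no depth, so the precision of the low levels of Oprk1 and the minor transcripts is unknown.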
